A study of Mus musculus with 6 samples.

Results

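The natural killer receptor genes described here are 5 lectin-like receptors (Klrd1, Klrk1, Klrg1, Klrb1c and Klre1), 3 immunoglobulin-like receptors (Ncr1, Cd160 and Crtam) and 2 signalling adaptors (Fcer1g and Tyrobp). They were chosen by name, each was represented by the probe set carrying its symbol alone, and all 10 were measured among 19938 genes. Expression was measured on 6 arrays of CD4 single-positive thymocytes of male C57BL/6 mice, 3 of Bach2 knockout (Ly5.1-) cells and 3 of wildtype (Ly5.1+) cells. Bach2 encodes a transcriptional repressor. Both kinds of cell came from mixed bone marrow chimeras: knockout and wildtype marrow, depleted of mature lineages, from male donors of 8 weeks was given in equal parts to lethally irradiated male Rag1 knockout hosts of the same age, and the thymocytes were sorted 2 months later by their Ly5.1 status. The hosts lack T and B cells of their own but can still hold other cells, natural killer and myeloid cells among them, that survive irradiation, and the labels do not name the Ly5 allele of the hosts. Genotype and the Ly5.1 allele cannot be told apart in this design, and the sources used here do not give the deleted part of Bach2. The study's design text calls the 3 samples of a genotype biological replicates and the 6 samples products of separate mice.

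Natural killer receptors come in activating and inhibitory forms. The lectin-like receptors are encoded mostly in one gene cluster, the natural killer complex, and recognise class I-like molecules, stress-induced ligands or cadherins, whereas the immunoglobulin-like receptors lie elsewhere in the genome. Activating receptors mostly have no signalling motif of their own and pass their signal through adaptors such as Fcer1g and Tyrobp, which carry immunoreceptor tyrosine-based activation motifs and recruit the kinases Syk and Zap70. Natural killer cells, natural killer T cells and activated or memory T cells carry these receptors, while conventional thymocytes carry few of them. Fcer1g and Tyrobp are also abundant in myeloid cells.

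Bach2 was lower on every array labelled knockout. It measured 7.89, 8.20 and 8.05 (log2) in the wildtype arrays (replicates 1 to 3), against 6.50, 6.42 and 6.52 in the knockout arrays, a difference of -1.57 ± 0.11 (limma standard error, adjusted p = 0.000156). Of 8 measured markers of CD4 single-positive thymocytes, Cd4 and Cd3e among them, 0 passed the test, with a median difference of -0.03 and a list mean of 10.66 to 10.77 on the 6 arrays. Double-positive thymocyte markers had a list mean of 6.30 to 6.72 in wildtype and 6.52 to 7.79 in knockout arrays, highest on knockout replicate 3. All 7 differed above 0 (median 0.46), and 0 passed the test. At an unadjusted p under 0.05 by limma 3 were higher, as were 3.04% of all genes. They were Rag1 (1.27), Arpp21 (0.95) and Ptcra (0.33). The part of double-positive cells in the members' values was not tested. Regulatory T cell markers had a list mean of 7.28 on wildtype replicate 1 against 8.15 and 8.14 on the other wildtype arrays and 6.32 to 6.46 on the knockout arrays. All values below are log2 expression after the authors' normalization (RMA), differences are knockout minus wildtype, and ± after a difference is the standard error of limma's linear model. Gene and fold values come from bulk RNA, in which fewer cells of a type and less RNA per cell cannot be told apart.

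Among the 10 receptor and adaptor genes, 0 passed the test over all genes (limma, Benjamini-Hochberg adjusted p under 0.05), where 0.567% of all genes did. At an unadjusted p under 0.05 there were 4, Cd160, Crtam and Klrk1 with lower and Fcer1g with higher values in the knockout, against 6.91% of all genes (3.87% lower and 3.04% higher). The 3 knockout values lay wholly on one side of the 3 wildtype values for 3 of 10, Cd160 and Klrk1 below and Fcer1g above, against 11.7% of all genes (6.57% below and 5.13% above). The median difference of the 8 receptors was -0.33 and that of the 10 members -0.17, beside -0.01 for all genes, and 6 of the 10 differences lay below 0, as did 53.8% of all genes. The adaptor differences were 0.41 (Fcer1g) and 0.15 (Tyrobp), the latter 0.04 without knockout replicate 1. With so few members these counts describe the list and set it apart from no other.

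**Figure D1:**
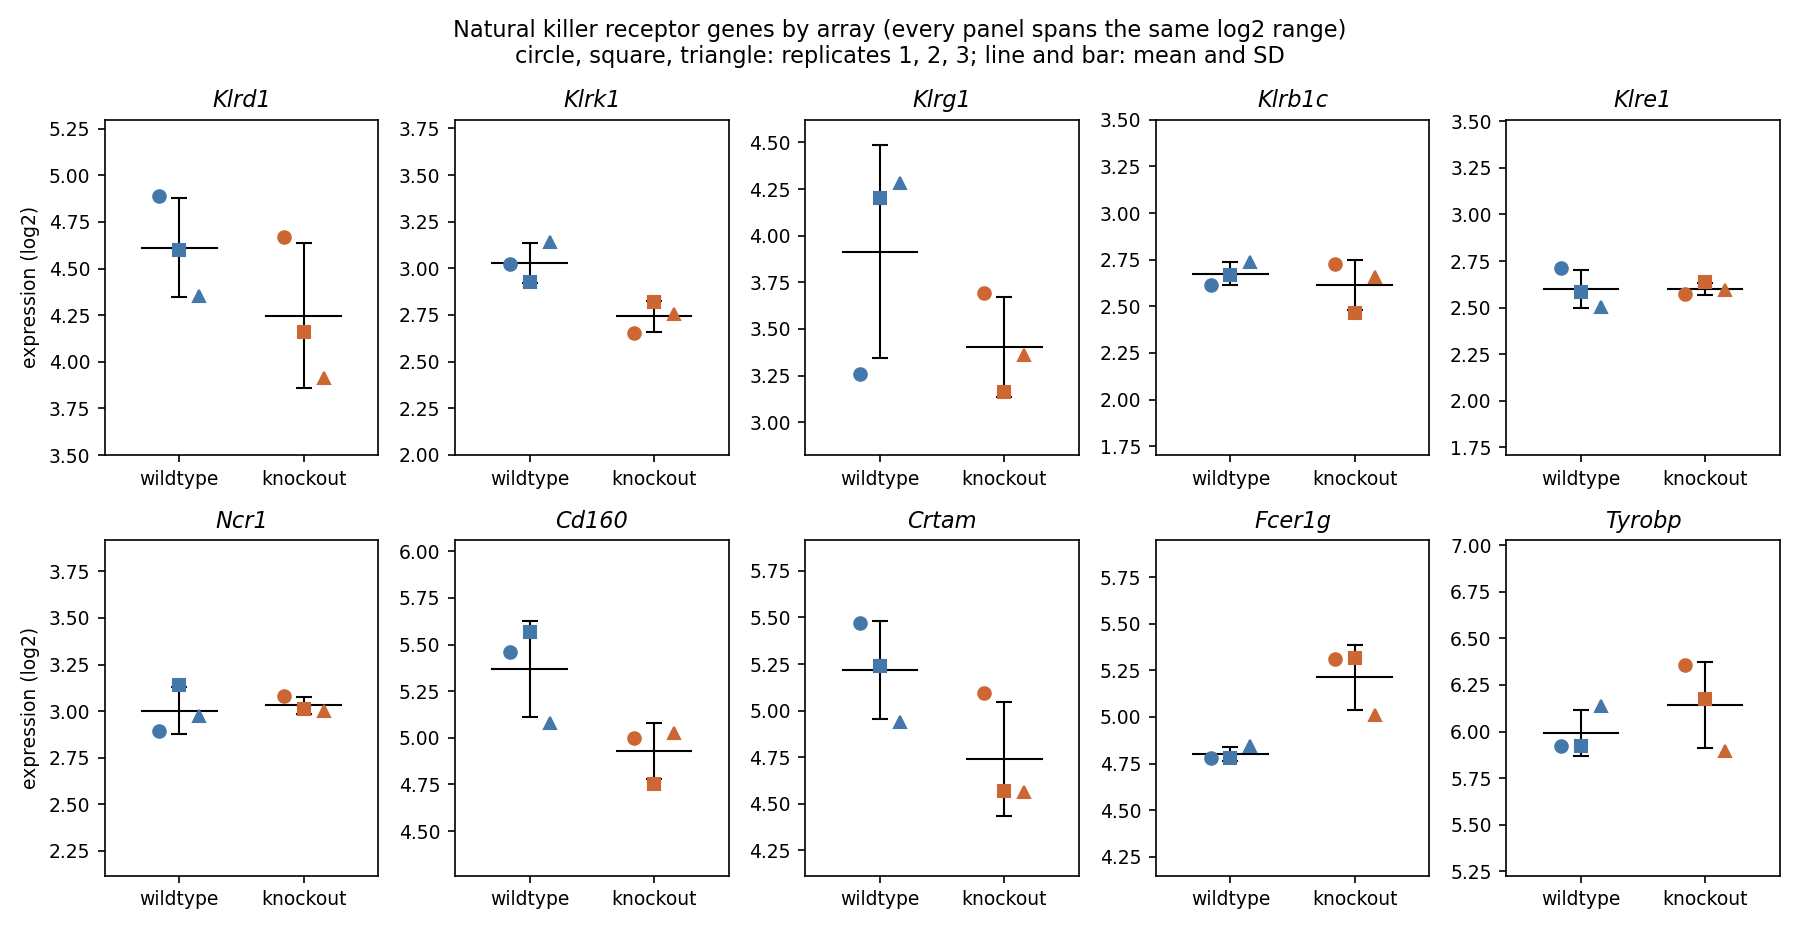
Log2 expression of the 10 natural killer receptor and adaptor genes on each array, wildtype in blue and knockout in orange, with symbols for replicates 1 to 3 and the group mean and SD (n = 3 each). Wildtype and knockout points are apart for Klrk1, Cd160 and Fcer1g and overlap in the other panels; each panel has its own position on the axis but the same range.

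Klrk1, better known as NKG2D, is an activating receptor for stress-induced class I-like ligands. Its probe set (10548345) measured 3.02, 2.92 and 3.14 in the wildtype arrays (replicates 1 to 3), against 2.66, 2.82 and 2.75 in the knockout arrays. Every knockout value lay under every wildtype value. The difference was -0.29 ± 0.10 (95% confidence interval -0.51 to -0.06), a 1.22-fold lower signal that did not pass over all genes (limma, adjusted p = 0.494). These values lay near the low end of the array's range, and whether they measured RNA above background is not given with the deposited values, so the fold is one of signal. The window of 300 bases around a gene's start, 250 before and 50 after, was available for 6 of the members from RefSeq (GRCm38.p6). Klrk1 was the one of the 6 whose window held the AP-1 core TGANTCA, a sequence of the kind that Bach2 binds with small Maf proteins. On either strand 7.81% of all 32851 windows hold it. The match began at base 18 after the start, and the stretch is shown at chr6:129623830-129623858 (minus strand), the core in capitals.
Klrk1: gttgaaggcttTGACTCAcaagaaacagg
The longer Maf recognition element, which contains that core, was in 0 of the 9 windows of the 6 members and in 0.423% of all windows. A match is a description of letters, and nothing about binding was measured.

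Klrd1 (probe set 10542214), also known as CD94, pairs with NKG2 proteins to bind the class I-like molecule Qa-1. It measured 4.89, 4.60 and 4.35 in the wildtype arrays (replicates 1 to 3), against 4.67, 4.16 and 3.91 in the knockout arrays. The groups overlapped, since knockout replicate 1 lay above 2 of the wildtype arrays. Its difference of -0.37 ± 0.19 (-0.79 to 0.06) did not pass (limma, adjusted p = 0.825). It was -0.58 without knockout replicate 1, -0.23 without wildtype replicate 1 and -0.20 without knockout replicate 3. In both genotypes replicate 1 was the highest array for this gene. Klrd1 lies directly between Klre1 and Klrk1 among the tested genes in gene order, with 0 genes between it and either.

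Klrg1 (probe set 10547590), an inhibitory receptor for cadherins found on highly differentiated natural killer cells, effector T cells and some regulatory T cells, had the widest gap of the 10 and also the widest wildtype spread. It measured 3.26, 4.20 and 4.28 in the wildtype arrays (replicates 1 to 3), against 3.69, 3.16 and 3.36 in the knockout arrays. Wildtype replicate 1 lay among the knockout values, while the other wildtype arrays lay above all of them. Wildtype arrays averaged 3.91 ± 0.57 and knockout arrays 3.40 ± 0.27 (SD, n = 3 each), a difference of -0.51 ± 0.25 (-1.06 to 0.04; limma, adjusted p = 0.775). Without wildtype replicate 1 the difference was -0.84 and its adjusted p by limma was 0.054, while without wildtype replicate 3 it was -0.33 (adjusted p = 0.925). Among the wildtype arrays the regulatory T cell markers were also lowest on replicate 1 (list mean 7.28 against 8.15 and 8.14). All 7 of these markers were measured and 4 (Foxp3, Ikzf2, Il2ra and Lrrc32) were lower in the knockout past the test (0.216% of all genes were), with 1 to 6 when an array was left out, fewest without wildtype replicate 3. The part of these cells in the Klrg1 values was not tested.

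Klrb1c and Klre1 differed by little. Klrb1c encodes the surface antigen by which natural killer cells of C57BL/6 mice are commonly sorted, and Klre1 a receptor that acts as a dimer with Klri1 or Klri2. Klrb1c (probe set 10548307) measured 2.62, 2.67 and 2.74 in the wildtype arrays (replicates 1 to 3), against 2.73, 2.46 and 2.66 in the knockout arrays. Klre1 (probe set 10542205) measured 2.71, 2.58 and 2.51 in the wildtype arrays (replicates 1 to 3), against 2.57, 2.64 and 2.60 in the knockout arrays. Both sets of values overlapped. The differences were -0.06 (95% confidence interval -0.29 to 0.17; limma, adjusted p = 0.992) and 0.00 (-0.21 to 0.21; adjusted p = 0.999). The interval of Klre1 spans at most a 1.16-fold change of signal in either direction. These probe sets lay as low as that of Klrk1, with the same limit.

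Cd160 (probe set 10500406), a receptor anchored in the membrane by a lipid that binds the herpesvirus entry mediator Tnfrsf14, measured 5.46, 5.57 and 5.08 in the wildtype arrays (replicates 1 to 3), against 4.999, 4.754 and 5.028 in the knockout arrays. The groups did not overlap, though wildtype replicate 3 lay close to knockout replicate 3. Wildtype arrays averaged 5.37 ± 0.26 and knockout arrays 4.93 ± 0.15 (SD, n = 3 each). The difference of -0.44 ± 0.14 (-0.75 to -0.13), 1.36-fold, did not pass over all genes (limma, adjusted p = 0.398). Left out one at a time, the 6 arrays gave differences of -0.59 to -0.34.

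Crtam (probe set 10592503), a receptor for the adhesion molecule Cadm1 that appears on activated cytotoxic lymphocytes, measured 5.47, 5.24 and 4.94 in the wildtype arrays (replicates 1 to 3), against 5.10, 4.57 and 4.56 in the knockout arrays. Knockout replicate 1 lay above wildtype replicate 3, so the groups overlapped. The difference of -0.48 ± 0.17 (-0.86 to -0.09), 1.39-fold, did not pass (limma, adjusted p = 0.531). As with Klrd1, replicate 1 was the highest array of either genotype.

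Ncr1 (probe set 10549647), or NKp46, the activating receptor that best marks natural killer cells across species, measured 2.90, 3.14 and 2.97 in the wildtype arrays (replicates 1 to 3), against 3.08, 3.01 and 3.00 in the knockout arrays. The groups overlapped fully, with a difference of 0.03 ± 0.10 (-0.19 to 0.25; limma, adjusted p = 0.998), and its signal was as low as that of Klrk1.

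RUNX factors, Runx3 among them, act in natural killer and cytotoxic T cells, so the same windows were searched for the RUNX motif TGTGGTT on both strands. This motif was chosen with the values known. It was in the windows of 4 of the 6 members (Cd160, Klrk1, Klre1 and Ncr1) and in 6 of their 9 windows, 2 of which overlap at Ncr1, against 5.27% of all windows. Fcer1g and Klrb1c held no match in these letters. The T-box motif TCACACC was in 1 window, that of the second Cd160 start, and in 3.98% of all windows. The 250 bases before each start that holds a RUNX match follow, with the match in capitals (for the first Cd160 start it reads AACCACA, the opposite strand) and for Ncr1 the first of its 2 starts. Of these genes Klrk1, Klre1 and Ncr1 gave signals near the low end of the array's range. A link between the motif and the differences was not tested. The first Cd160 start is at chr3:96829352-96829601 and the second at chr3:96814522-96814771 (minus strand both). Klrk1 is at chr6:129623865-129624114 (minus), Klre1 at chr6:129577963-129578212 (plus) and Ncr1 at chr7:4337465-4337714 (plus).
Cd160, first start: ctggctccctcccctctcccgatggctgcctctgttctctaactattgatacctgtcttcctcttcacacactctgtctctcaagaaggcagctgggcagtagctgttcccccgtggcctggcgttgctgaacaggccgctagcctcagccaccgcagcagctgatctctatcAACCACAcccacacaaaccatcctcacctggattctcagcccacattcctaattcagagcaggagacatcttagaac
Cd160, second start: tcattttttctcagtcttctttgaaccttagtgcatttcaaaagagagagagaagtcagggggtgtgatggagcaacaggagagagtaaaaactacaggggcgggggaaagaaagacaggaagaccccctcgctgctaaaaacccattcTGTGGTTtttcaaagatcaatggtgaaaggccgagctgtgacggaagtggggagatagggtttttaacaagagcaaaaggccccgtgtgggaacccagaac
Klrk1: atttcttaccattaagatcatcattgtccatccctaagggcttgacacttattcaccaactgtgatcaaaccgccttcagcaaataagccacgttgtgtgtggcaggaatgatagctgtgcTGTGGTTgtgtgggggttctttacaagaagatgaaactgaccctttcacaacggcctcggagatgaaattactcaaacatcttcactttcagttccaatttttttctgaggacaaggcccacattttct
Klre1: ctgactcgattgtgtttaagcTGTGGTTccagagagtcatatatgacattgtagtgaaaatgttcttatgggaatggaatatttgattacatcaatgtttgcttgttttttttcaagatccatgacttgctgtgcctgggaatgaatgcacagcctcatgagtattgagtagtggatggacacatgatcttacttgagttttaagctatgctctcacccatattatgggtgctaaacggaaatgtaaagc
Ncr1: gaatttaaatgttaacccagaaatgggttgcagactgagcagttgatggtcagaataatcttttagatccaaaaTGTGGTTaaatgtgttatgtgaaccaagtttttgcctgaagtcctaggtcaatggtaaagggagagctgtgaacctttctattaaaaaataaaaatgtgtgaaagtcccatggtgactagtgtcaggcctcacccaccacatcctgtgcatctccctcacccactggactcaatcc
The match began 77 bases before the first Cd160 start and 101 before the second, 129 before that of Klrk1, 229 before that of Klre1 and 176 before that of Ncr1.

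**Figure D2:**
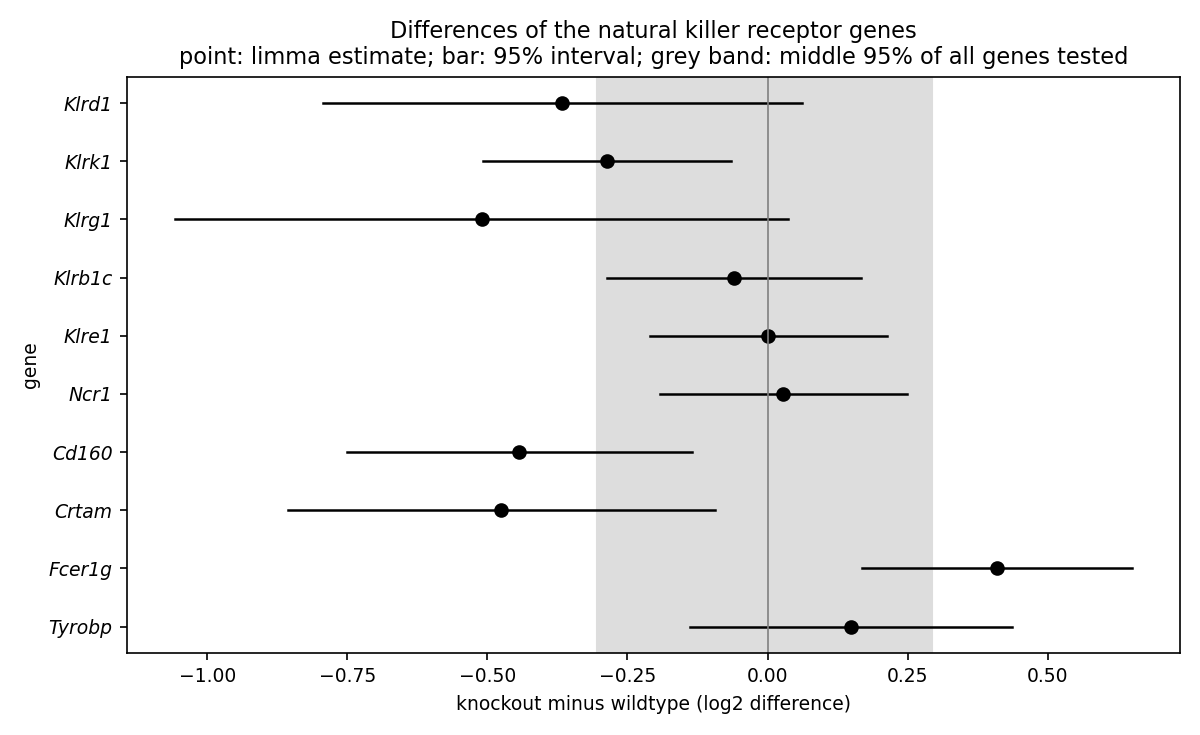
Knockout minus wildtype difference (log2) of each natural killer receptor and adaptor gene, with the 95% confidence interval from limma; the grey band spans the middle 95% of the differences of all 19938 genes, -0.30 to 0.29. The points of Klrd1, Klrg1, Cd160 and Crtam lie below the band and that of Fcer1g above it, and the intervals of Klrk1, Cd160, Crtam and Fcer1g do not cross 0.

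The adaptor Fcer1g (probe set 10360070), the gamma chain shared by Fc receptors that also serves Ncr1 and Klrb1c, had the smallest p of the 10. It measured 4.78, 4.78 and 4.84 in the wildtype arrays (replicates 1 to 3), against 5.31, 5.32 and 5.01 in the knockout arrays. All knockout values lay above all wildtype values, with knockout replicate 3 the lowest of them. Wildtype arrays averaged 4.80 ± 0.04 and knockout arrays 5.21 ± 0.18 (SD, n = 3 each). The difference of 0.41 ± 0.11 (0.17 to 0.65), 1.33-fold, did not pass over all genes (limma, adjusted p = 0.245; unadjusted p = 0.00355). Fcer1g lies on the chromosome of Ptprc, the gene that holds the Ly5.1 allele, with 185 tested genes between them in gene order. An effect of a chromosome segment carried along with Ly5.1 cannot be told apart from that of Bach2 for this gene.

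Tyrobp (probe set 10551883), or DAP12, the adaptor of several activating lectin-like receptors and an alternative partner of Klrk1 in the mouse, measured 5.92, 5.92 and 6.14 in the wildtype arrays (replicates 1 to 3), against 6.36, 6.17 and 5.90 in the knockout arrays. Knockout replicate 3 was the lowest of the 6 arrays and knockout replicate 1 the highest. The difference of 0.15 ± 0.13 (-0.14 to 0.44) did not pass (limma, adjusted p = 0.956). It was 0.04 without knockout replicate 1 and 0.27 without knockout replicate 3.

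Of 11 measured markers of macrophages and monocytes, cells rich in both adaptors, 7 differed above 0 and 4 below. At an unadjusted p under 0.05 by limma, 3 had higher and 2 lower knockout values (3.04% and 3.87% of all genes). The higher were Lyz2, Aif1 (0.45, adjusted p = 0.579) and Ctss (0.26, adjusted p = 0.524), all without overlap. Among the lower was Itgam, an integrin chain of myeloid cells, at 4.26, 4.18 and 4.56 in the wildtype arrays (replicates 1 to 3) against 4.09, 4.02 and 3.89 in the knockout arrays, without overlap. It differed by -0.33 and Mpeg1 by -0.31 (limma, adjusted p = 0.528 and 0.690). Past the test over all genes 1 marker was higher (0.351% of all genes were), the lysozyme gene Lyz2, which measured 5.68, 4.97 and 5.22 in the wildtype arrays (replicates 1 to 3), against 7.03, 6.82 and 6.17 in the knockout arrays (limma, adjusted p = 0.0256). With each of the 6 arrays left out in turn Lyz2 lost its call 4 times, without wildtype replicate 2 (adjusted p = 0.0823) or 3 (0.153) or knockout replicate 1 (0.0821) or 2 (0.119). The macrophage list mean was 5.23 to 5.45 in wildtype and 5.41 to 5.69 in knockout arrays, which overlap, and was highest on knockout replicate 1 as for Tyrobp. Csf1r and Adgre1, which define macrophages, differed by 0.08 and -0.06, and their levels of 3.59 to 3.96 and 2.97 to 3.21 were under the median gene (5.13). Of 9 granulocyte, mast cell and basophil markers 0 passed the test by limma, and 4 differed above 0 and 5 below. At an unadjusted p under 0.05 there were 2, both higher, S100a8 (0.97, adjusted p = 0.456) and S100a9 (0.78, adjusted p = 0.340, without overlap). The list mean was 3.38 to 3.74 in wildtype and 3.55 to 3.78 in knockout arrays. Dendritic cell markers had 0 of 7 past the test (1 unadjusted, higher), with list means of 4.75 to 4.81 and 4.82 to 5.02. The 1 was Ccr9, at 10.2 to 10.8 on the 6 arrays (0.38; limma, adjusted p = 0.297). The other dendritic cell markers differed by -0.07 to 0.31. The part of such cells in the adaptor values was not tested.

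Markers of natural killer cells, the members Klrb1c and Ncr1 among them, were measured for 11 of 12 names. By limma 0 passed over all genes (6 unadjusted, all lower, as were 3.87% of all genes). The 6 were Il2rb (-0.76), Nkg7 (-0.76), Eomes (-0.70), Gzmb (-0.61), Prf1 (-0.48) and Itga2 (-0.26). Of the 11 differences 9 lay below 0 and 2 above, Gzma (0.42; limma, adjusted p = 0.833) and Ncr1 (0.03). The widest was that of Ccl5 (-0.90; limma, adjusted p = 0.789), whose groups overlapped. The list mean was 5.04 to 5.41 in wildtype and 4.75 to 5.07 in knockout arrays, which overlap. Klrb1c, Ncr1 and Klra8 lay between 2.42 and 3.14 on all arrays, under the median gene and with the same limit as Klrk1. Natural killer T cell markers had 0 of 8 past the test (1 unadjusted, lower, which was Il2rb again). Their list mean was 5.91 to 6.03 in wildtype and 5.79 to 5.98 in knockout arrays. Gamma delta T cell markers had 0 of 6 (1 unadjusted, lower), with 4.77 to 4.84 and 4.65 to 4.74. CD8 T cell markers had 0 of 6 (3 unadjusted, all lower), with 6.71 to 7.01 and 6.34 to 6.82. The 3 were Runx3 and, shared with the natural killer cell list, Eomes and Nkg7. Cd8a and Cd8b1 themselves differed by 0.37 and 0.13 (limma, adjusted p = 0.923 and 0.984). B cell markers had 0 of 5 (0 unadjusted), with 3.94 to 4.31 and 4.16 to 4.29. The part of any of these cells in the receptor values was not tested.

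**Figure D3:**
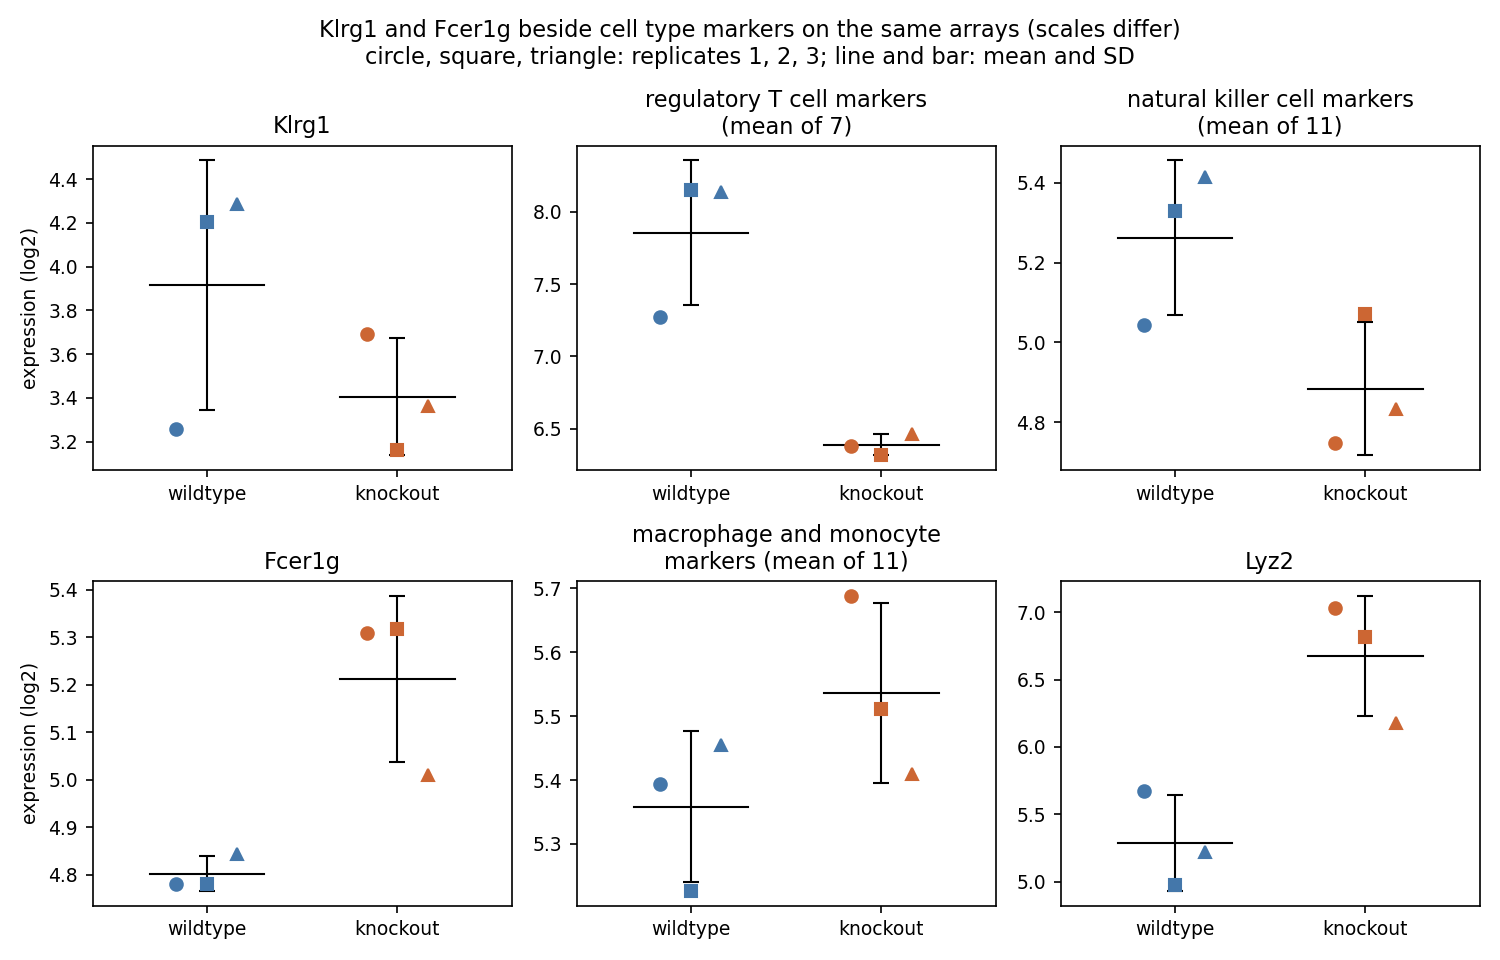
Log2 expression by array of Klrg1 beside the mean of 7 regulatory T cell markers and of 11 natural killer cell markers (top), and of Fcer1g beside the mean of 11 macrophage and monocyte markers and Lyz2 (bottom), with group mean and SD (n = 3 each). Wildtype replicate 1 (blue circle) is the lowest wildtype point in all 3 top panels, and knockout replicate 3 (orange triangle) is the lowest knockout point in all 3 bottom panels.

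Other receptors of natural killer cells were measured for 24 of 31 listed symbols, and 0 passed the test by limma (3 unadjusted, where 6.91% of all genes had such a p). Their median difference was -0.05. Lair1, an inhibitory receptor for collagens, came closest. It measured 5.25, 5.39 and 5.42 in the wildtype arrays (replicates 1 to 3), against 5.90, 5.81 and 5.82 in the knockout arrays, without overlap, and differed by 0.49 (limma, adjusted p = 0.0631). Its adjusted p ran from 0.0277 to 0.321 over 16 other ways of analysing the data and was under 0.05 in 3. Klrc3, of the NKG2 family that pairs with Klrd1, differed by -0.35 (limma, adjusted p = 0.613). Its values of 1.70 to 2.27 overlapped between the groups and lay lower than those of Klrk1, with the same limit. Tigit, an inhibitory receptor of T and natural killer cells, differed by -0.46 (limma, adjusted p = 0.648). Tigit was at 6.42 on wildtype replicate 1 and at 7.26 and 7.14 on the other wildtype arrays, so it was lowest on the same wildtype array as Klrg1. Without wildtype replicate 1 Tigit differed by -0.72 and passed (limma, adjusted p = 0.0196), but without wildtype replicate 2 it differed by -0.30 (adjusted p = 0.563). It passed in 1 of the 16 alternatives, with an adjusted p of up to 0.9995. Klrc1, whose protein pairs with Klrd1 as an inhibitory receptor, differed by -0.16. Klri1 and Klri2, the partners of Klre1, differed by -0.05 and -0.20. The genes of the Klra family measured here are near copies of one another, and their probe sets may bind labelled cDNA of more than 1 gene.

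Ligands of the members or, for Clec2d (-0.01), of a related receptor were measured for 7 of 15 listed symbols. By limma 0 passed the test, and the median difference was -0.07. At an unadjusted p under 0.05 there was 1, higher, as were 3.04% of all genes. Tnfrsf14, the ligand of Cd160, had knockout values of 8.83, 8.96 and 8.96 above wildtype values of 8.52, 8.60 and 8.75, and differed by 0.29 without passing (adjusted p = 0.475). Cadm1, the ligand of Crtam, differed by 0.09. H60b and Raet1d, ligands of Klrk1, differed by -0.29 and -0.21 (adjusted p = 0.873 and 0.961).

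Downstream of the receptors, 0 of 21 measured signalling genes passed by limma, with a median difference of 0.03. At an unadjusted p under 0.05 there were 2, both higher, as were 3.04% of all genes. Hcst, or DAP10, the adaptor through which Klrk1 recruits phosphoinositide 3-kinase, measured 10.54, 10.36 and 10.44 in the wildtype arrays (replicates 1 to 3), against 10.80, 10.75 and 10.64 in the knockout arrays. These values did not overlap, and the difference of 0.28 did not pass (adjusted p = 0.489). Malt1, which carries receptor signals to NF-kappa B, differed by 0.24 (adjusted p = 0.548), and the kinases Syk and Zap70 differed by -0.01 and 0.06. The zeta chain Cd247, the other adaptor of Ncr1, differed by 0.08.

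Transcription factors and cytokine receptor chains that govern natural killer and cytotoxic lineages were measured for 12 of 13 names. By limma 0 passed over all genes, while 7 had an unadjusted p under 0.05, 5 lower and 2 higher, and for 7 the groups did not overlap. Over all genes these shares were 6.91% and 11.7%. The 2 higher were Id2 (0.33) and Il15ra (0.30), both without overlap (limma, adjusted p = 0.56 and 0.597). Eomes, a T-box factor of natural killer and memory CD8 T cells, measured 5.11, 5.61 and 5.66 in the wildtype arrays (replicates 1 to 3), against 4.63, 4.92 and 4.74 in the knockout arrays, a difference of -0.70 (adjusted p = 0.106). Runx3 measured 8.17, 8.47 and 8.07 in the wildtype arrays (replicates 1 to 3), against 7.69, 7.79 and 7.57 in the knockout arrays, a difference of -0.55 (adjusted p = 0.112). Il2rb, the chain that interleukins 2 and 15 share, measured 8.60, 9.35 and 9.38 in the wildtype arrays (replicates 1 to 3), against 8.31, 8.48 and 8.27 in the knockout arrays, a difference of -0.76 (adjusted p = 0.181). All 3 had knockout values under every wildtype value, and Eomes and Il2rb were lowest on wildtype replicate 1 among the wildtype arrays. Without that array Eomes (-0.87, limma adjusted p = 0.0131) and Il2rb (-1.01, adjusted p = 0.00372) passed. Over the alternatives the difference of Eomes ran up to -0.59 with an adjusted p of up to 0.656, and that of Il2rb up to -0.62 with an adjusted p of up to 0.744. Tbx21 and Zbtb16, the factors of type 1 lymphocytes and of natural killer T cells, differed by -0.04 and 0.03.

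**Figure D4:**
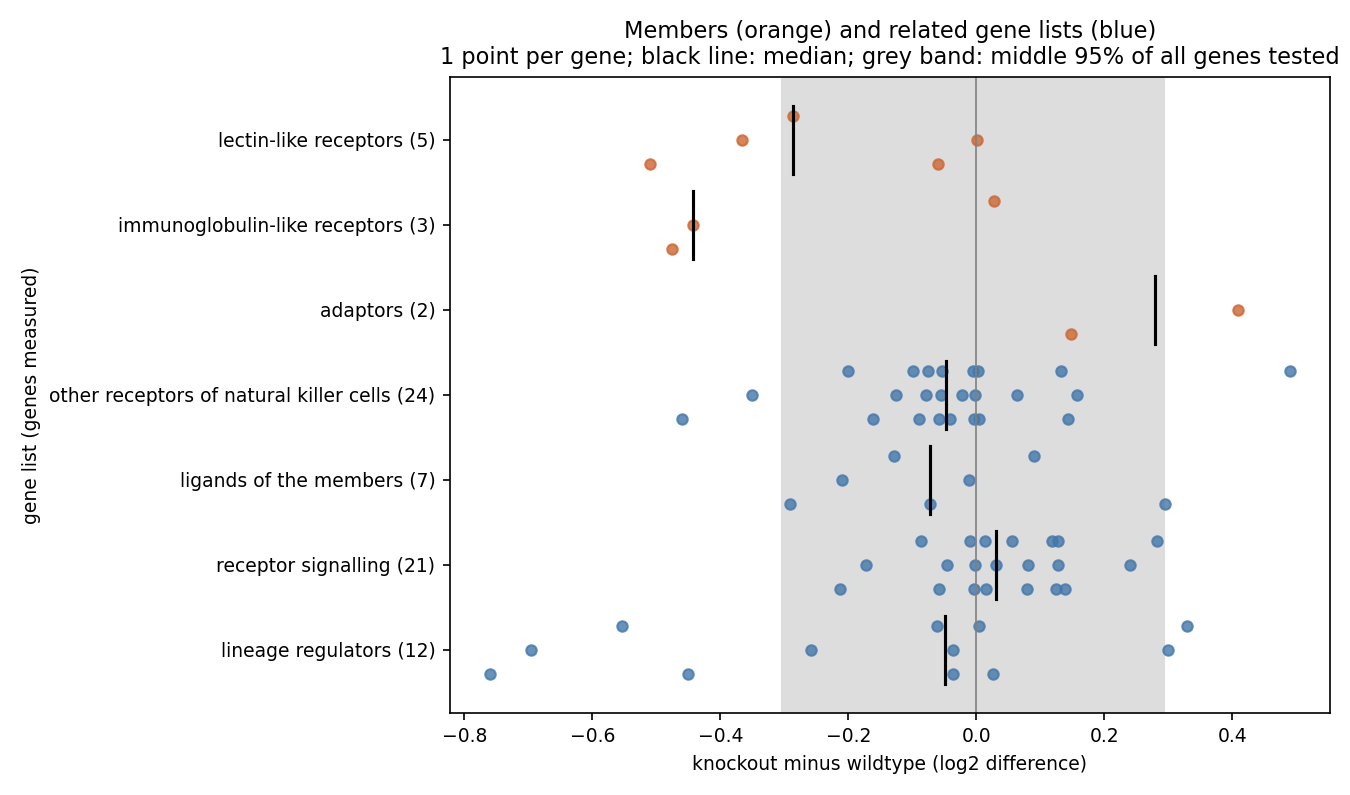
Knockout minus wildtype difference (log2) of each gene, with the members in orange by class and 4 related lists in blue, a black line at each list's median and a grey band over the middle 95% of all 19938 genes (-0.30 to 0.29). Receptor medians are at -0.29 and -0.44 and the adaptor median at 0.28, while the medians of the other lists lie between -0.07 and 0.03.

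Genes with a pattern like the receptors' were sought among 1805 genes that lay above the median gene and varied by an SD of at least 0.2 over the arrays. The 5 with the highest Pearson correlation over 6 arrays to the mean of the 8 receptors were F13a1 (r = 0.986), Eno3 (0.986), Acss2 (0.983), Zranb3 (0.978) and Ybx3 (0.977). F13a1, a chain of coagulation factor XIII, measured 6.71, 6.78 and 6.64 in the wildtype arrays (replicates 1 to 3), against 6.41, 6.11 and 6.10 in the knockout arrays. For the mean of the 2 adaptors they were Stk40 (0.948), Apobr (0.946), Txnrd2 (0.945), Gm9776 (0.925) and Tradd (0.923). With 6 arrays that share a genotype difference, many genes correlate highly, and the 200th gene in order still reached 0.731 for the receptors and 0.638 for the adaptors.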

How the data were processed

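The deposited values are log2 expression, 1 per probe set and array; the submitters' processing notes name RMA and Partek, without versions. The log2 scale was read from the values (1.10 to 13.2, array medians of 4.93 to 4.97, not centred per gene). No genome build is named in the sources used here. RMA gives all arrays a like distribution, which would hide a shift common to all genes, and 3 arrays per group limit the precision. The platform's annotation, possibly dated, gave 1 symbol for 21789 of the 35556 probe sets, several for 1621 and none for 12146. A gene was taken as its single-symbol probe set with the highest mean; each member had 1 such probe set, and all 10 matched RefSeq by gene number.

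Differences were fitted with limma 3.58.1 (lmFit, eBayes, two-sided) in R 4.3.3 on all 19938 genes, with Benjamini-Hochberg adjustment over all of them and a threshold of 0.05. Members and lists were chosen with earlier results of these data known. All members are named. From each pathway list (other receptors, ligands, signalling, lineage regulators) genes that passed are named, and otherwise up to 3 with the smallest p. Of the cell type marker lists, the regulatory T cell genes that passed were named after their values were seen. So were the markers Lyz2, Aif1, Ctss, Itgam, Mpeg1, S100a8, S100a9, Eomes, Il2rb, Nkg7, Gzmb, Prf1 and Itga2. Gzma, Ccl5, Cd8a, Cd8b1, Ccr9, Rag1, Arpp21, Ptcra, Clec2d, Id2 and Il15ra were also named after their values were seen. Klrc1, Klri1, Klri2, Cadm1, Syk, Zap70, Cd247, Tbx21, Zbtb16, Csf1r and Adgre1 were added for their roles. A dim gene is one with a mean at or under the median gene (5.13); Cd160 and Tyrobp lay above it. Python 3.11.15 with matplotlib 3.10.9 drew the figures.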

Additional observations from a re-analysis of the deposited data

How the results depend on the processing

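Under 16 alternatives (other priors, no moderation, array weights, no dim genes, centred arrays, quantile normalization once more, averaged or all probe sets, the replicate number as a block, each array left out), 0 members passed, with 1 to 5 at an unadjusted p under 0.05. Without dim genes only Cd160 and Tyrobp were tested. Klrd1, Klrk1, Klrg1, Cd160, Crtam, Fcer1g and Tyrobp kept their direction wherever they were tested. Signs near 0 turned for Klrb1c (0.015 without knockout replicate 2; range -0.12 to 0.015 with an array left out), Ncr1 (-0.026 without wildtype replicate 1; -0.026 to 0.097) and Klre1 (below 0 without wildtype replicate 2 or 3 or knockout replicate 2; -0.046 to 0.057). Leaving out each array moved the members' median from -0.20 to -0.14, Klrd1 from -0.58 to -0.20 (lowest without knockout replicate 1), Klrg1 from -0.84 to -0.33, Crtam from -0.65 to -0.35 and Tyrobp from 0.04 (without knockout replicate 1) to 0.27; the cause was not tested. Over all genes 113 passed, 178 with a prior that follows expression level, 1 without moderation (1280 at an unadjusted p under 0.05), 37 of 35556 probe sets, and 47 to 118 with an array left out, fewest without wildtype replicate 3 (63 and 62 when knockout replicate 2 or 3 was dropped). Among other receptors 1 gene, Lair1, passed without dim genes, after a second quantile normalization and with array weights, and 0 to 1 (Tigit) with an array left out. Among lineage regulators 1 passed with a prior that follows expression level (Runx3), and 0 to 2 (Eomes and Il2rb, without wildtype replicate 1) with an array left out. With the replicate block, 1 lineage regulator passed (Eomes, adjusted p = 0.039) and 0 members. The block lowered the unadjusted limma p of Klrd1 (0.0859 to 0.00618) and Crtam (0.0194 to 0.00177) and raised that of the other members. Same-numbered arrays had correlated deviations of 0.21, 0.11 and -0.07. Knockout replicates 1 and 2 correlated best with the wildtype array of their number, but knockout replicate 3 with wildtype replicate 2 (0.17). As the design text names separate mice, the numbers were not taken to pair the samples. Most members were dim, and no detection call came with the values.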
